A study of Mus musculus with 19 samples.

Results

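The 10 genes followed here make or sense prostaglandins and leukotrienes, and were measured in single cells of the mouse hindlimb while heterotopic ossification (HO), bone that forms outside the skeleton, developed after injury. They were chosen by symbol among the 27998 genes counted in every library, because cyclooxygenase is the target of drugs given against HO, and the rule used no measured value. The list comprised both cyclooxygenases (Ptgs1 and Ptgs2), 3 terminal prostaglandin synthases (Ptges, Ptgis and Hpgds), a pair of prostaglandin E2 receptors (Ptger2 and Ptger4) and 3 genes of leukotriene synthesis (Alox5, Alox5ap and Ltc4s). The 19 libraries fell into 5 groups. Tissue was taken at day 0 (4 libraries, from mice without injury per the study), day 3 (3 libraries), day 7 (4) and day 21 (4) after a dorsal burn with transection of the Achilles tendon (burn/tenotomy). In the remaining group (4), mice with the same injury were given p7N3, a peptide that activates CD47, at 10 mg/kg into the peritoneum each day from 3 days before until 3 days after injury. Per the study, wild type animals were young adult male C57BL/6J mice and p7N3 tissue was collected at day 7, although the labels give replicate 4 of that group no harvest day. The labels also list LysmCre/Tgfb1fx/fx mice, in which Cre is driven by a myeloid promoter, for the series as a whole and tie no genotype to a library. Per the study the controls of p7N3 received saline (PBS) and single-cell experiments were repeated to capture variation between mice, but no source used here ties a library to an animal or says which day 7 libraries received PBS.

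Cyclooxygenases turn arachidonic acid, once it is released from membranes, into prostaglandin H2, which terminal synthases convert into prostaglandin E2, prostacyclin or prostaglandin D2. Ptgs1 is known as the form present in resting tissue, and Ptgs2 as the form induced by inflammation and by mechanical stimuli. In a parallel route, 5-lipoxygenase and its activating protein, both typical of myeloid cells, yield leukotriene A4, which leukotriene C4 synthase joins to glutathione. Prostaglandin E2 acts on bone-forming cells and on leukocytes through receptors that include EP2 and EP4.

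Transcripts were counted as unique molecular identifiers (UMIs), and levels are given as counts scaled to 1000000 UMIs (CPM), either of a whole library (the whole site) or of its cells of 1 type. After filtering, 39541 cells remained. The libraries held 3019467 to 5383855 UMIs at day 0 and 11064153 to 39870492 UMIs in the other groups, so low levels were least precise at day 0. Cells were clustered without the 10 genes and named from marker lists, and "-like" marks such a name. The 3 lineages tested were monocyte/macrophage-like (14407 cells), stromal-like (9798) and endothelial-like (3371). Each lineage drew on different clusters over time. At day 0, 95.6% of stromal-like cells lay in cluster 6 (Myoc, Gsn, Inmt), 66.6% of monocyte/macrophage-like cells in cluster 18 (Cd209f, Cd163, Fcna) and 93.1% of endothelial-like cells in cluster 9 (Timp4, Gpihbp1). At day 3, 93.4% of stromal-like cells lay in cluster 17 (Prg4, Cxcl14, Lcn2), 47.6% of monocyte/macrophage-like cells in cluster 3 (Chil3, Ly6c2, Ccr2) and 82.3% of endothelial-like cells in cluster 12 (Plvap, Selp). Endothelial-like cells were few at day 3, with 31 to 34 in a library and 96 in all, so their day 3 levels rest on few cells. Any 2 libraries shared at most 22 cell barcodes. The p-values below measure the spread between libraries, which may in part be technical.

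In the uninjured limb the synthases were divided between lineages. At day 0 stromal-like cells held 90.6% ± 4.3 (SD, n = 4) of all Ptgs2 UMIs, 96.2% ± 2.8 of Ptges and 71.6% ± 8.0 of Ptgis, and 36.9% of all UMIs. Monocyte/macrophage-like cells held 86.4% ± 7.5 of Alox5, 79.5% ± 3.2 of Alox5ap, 89.2% ± 4.4 of Ltc4s and 77.2% ± 11.6 of Hpgds with 9.10% of all UMIs. Endothelial-like cells held 48.7% ± 9.96 of Ptgs1 and 50.04% ± 2.85 of Ptger4, with 31.6% of all UMIs. Ptger2 was rare, with 40 UMIs over the 4 day 0 libraries, of which stromal-like cells held 54.9% ± 10.5.

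**Figure D1:**
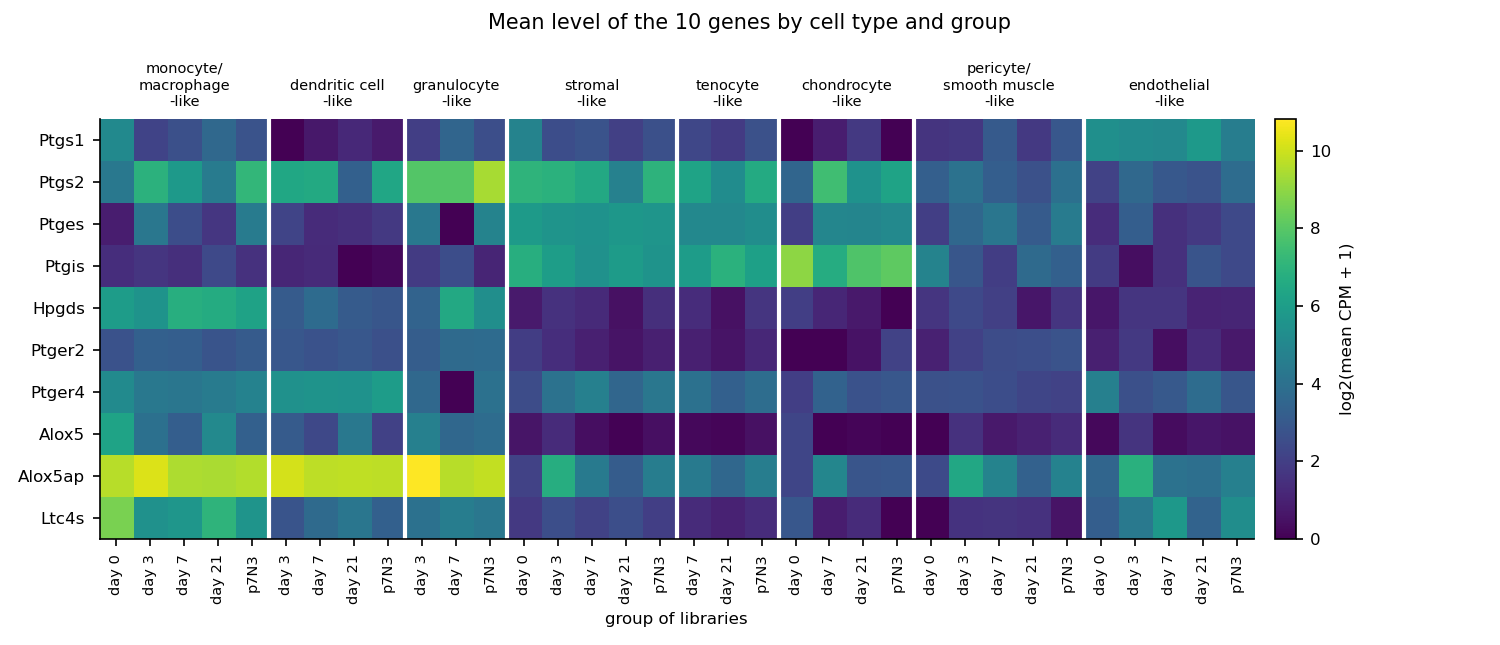
Colour gives log2(mean CPM + 1) of each gene (rows) in each cell type and group of libraries (columns) where at least 2 libraries held 10 or more cells of that type. Alox5ap is bright in the myeloid types, Ptgis in the chondrocyte-like column at day 0 (505 CPM), and Ptgs1 in the endothelial-like columns.

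After injury most of these genes changed at the whole site, as most genes did. At day 3, 7 of the 10 genes passed the test against day 0 (5 higher, 2 lower; 74.6% of all genes tested passed), at day 7, 8 of 10 (4 higher, 4 lower; 63.5% of all genes), and at day 21, 7 of 10 (2 higher, 5 lower; 51.8% of all genes). Against such backgrounds the counts alone are no result about these genes, and direction, size and cell type are described below. The median log2 fold change of the 10 genes was 0.52, 0.41 and -0.51 at days 3, 7 and 21, and that of all genes lay between -0.02 and 0.00. Within lineages fewer of the 10 genes had enough UMIs to be tested. In monocyte/macrophage-like cells 6 of 7 tested genes passed at day 3 (52.3% of all genes), 6 of 8 at day 7 (35.5%) and 4 of 7 at day 21 (25.6%). In stromal-like cells 4 of 6 passed at day 3 (66.1%), 7 of 8 at day 7 (50.6%) and 5 of 6 at day 21 (31.1%). In endothelial-like cells 4 of 5 passed at day 3 (55.9%), 2 of 4 at day 7 (59.4%) and 2 of 4 at day 21 (28.1%). The 3 comparisons share the day 0 libraries. A level of the whole site mixes cell numbers and RNA per cell, which cannot be told apart there. Monocyte/macrophage-like cells held 9.10% of UMIs at day 0, 46.8% at day 3, 20.3% at day 7 and 8.47% at day 21.

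**Figure D2:**
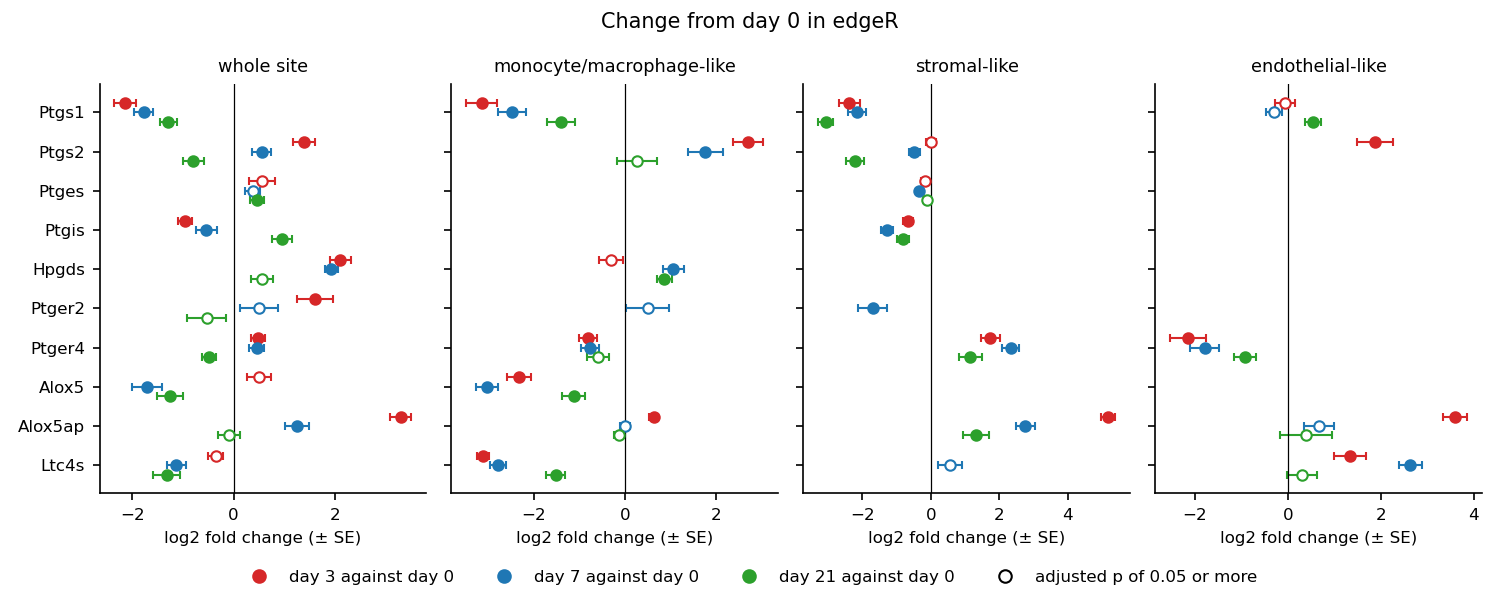
Points give the log2 fold change (horizontal axis, ± SE) of each gene at day 3, day 7 and day 21 against day 0 in the whole site and in each lineage, and filled points passed an adjusted p of 0.05 in edgeR. Ptgs1 lies left of zero everywhere but in endothelial-like cells, and Ptgs2 lies right of zero at days 3 and 7 in monocyte/macrophage-like cells, with no call at day 21, and near or left of zero in stromal-like cells.

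At the whole site Ptgs1 fell and Ptgs2 rose at day 3, but by day 21 both were lower than at day 0 there and in stromal-like cells. The sequence before the start of both genes is shown (RefSeq, GRCm38.p6, plus strand, 250 bases each). Capitals mark TTGCGCAA, a motif bound by the C/EBP family of transcription factors, at bases -69 to -62 from the RefSeq start of Ptgs2.
Ptgs2, chr1:150099781-150100030: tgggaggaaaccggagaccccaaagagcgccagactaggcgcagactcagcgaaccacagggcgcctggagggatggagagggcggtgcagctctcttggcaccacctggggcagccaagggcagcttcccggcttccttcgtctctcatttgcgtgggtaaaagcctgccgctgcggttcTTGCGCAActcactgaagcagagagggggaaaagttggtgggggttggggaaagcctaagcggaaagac
Ptgs1, chr2:36230176-36230425: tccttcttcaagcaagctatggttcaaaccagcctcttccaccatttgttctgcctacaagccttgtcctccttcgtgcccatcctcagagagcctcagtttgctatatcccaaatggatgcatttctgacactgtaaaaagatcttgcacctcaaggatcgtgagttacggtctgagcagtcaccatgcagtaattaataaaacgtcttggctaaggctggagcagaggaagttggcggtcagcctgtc
A shorter stretch of Ptgs2 just after that start follows. Its capitals mark CGTCA, the reverse complement of the cyclic AMP response element core TGACG, at bases 14 to 18 counted from 1 at the start, and the E-box CACGTG, which overlaps it at bases 17 to 22.
Ptgs2, chr1:150100035-150100064: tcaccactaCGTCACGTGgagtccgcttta
These 3 motifs were searched on both strands of the 300 bases around the start of the 8 genes with an entry in the RefSeq promoter table. Ptgs2 alone of the 8 held TTGCGCAA, CACGTG or TGACG, and of all 32851 such windows 0.183%, 7.15% and 20.8% held them. Only motifs present in Ptgs2 were searched, so their absence from the others does not set Ptgs2 apart. The upstream bases were 61.6% G or C for Ptgs2 and 48.0% for Ptgs1. A match describes letters only, and binding was not measured.

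Ptgs1 (ENSMUSG00000047250, chr2:36230426-36252272) fell at the injury site and stayed low through day 21. Its whole-site level was 24.1, 38.4, 22.0 and 22.0 CPM in the day 0 libraries, 5.20, 3.62 and 5.23 CPM at day 3, and 8.24 to 11.5 CPM at day 21. No injured library reached the lowest day 0 library. The log2 fold change was -2.14 ± 0.22 (SE) at day 3, -1.78 ± 0.19 at day 7 and -1.29 ± 0.17 at day 21 (edgeR adjusted p = 1.98e-05, 2.31e-05 and 0.000244). The fall was seen in both immune and connective tissue cells. Ptgs1 in monocyte/macrophage-like cells went from 33.8 ± 10.4 CPM (SD, n = 4) to 3.47 ± 0.93 at day 3 (n = 3), a log2 change of -3.15 ± 0.34 (edgeR adjusted p = 8.15e-06). In stromal-like cells it went from 27.9 ± 9.0 CPM to 4.87 ± 2.46 at day 3 and 3.13 ± 0.29 at day 21, where the log2 change was -3.06 ± 0.22 (edgeR adjusted p = 1.38e-06). That change was -2.38 with clusters cut more finely and named anew (Leiden resolution 2). Cluster 18 held 80.0% of monocyte/macrophage-like Ptgs1 UMIs at day 0. Its level was 44.1 ± 22.6 CPM then (n = 4) and 2.59 ± 3.66 at day 3 (n = 2, 3 UMIs). Cluster 3, 47.6% of that lineage at day 3, held 1.86 ± 0.81 CPM (n = 3). In stromal-like cells cluster 6 held 28.7 ± 9.55 CPM at day 0, 12.3 ± 10.8 at day 7 and 6.50 ± 3.03 at day 21 (n = 4 each). The part of shifts between clusters in the fall was not tested. Endothelial-like cells held 30.1 to 55.4 CPM at day 0. Their day 3 libraries held 44.4, 31.2 and 31.3 CPM, and day 7 libraries lay between 27.5 and 36.7, so the ranges overlapped (edgeR adjusted p = 0.82 and 0.16). The clusters behind these levels differed. Cluster 12 held 152 ± 75.2 CPM at day 0 (n = 2, 18 UMIs), 41.7 ± 9.45 at day 3 (n = 3) and 42.1 ± 6.86 at day 7 (n = 4). Cluster 9 held 19.8 to 55.8 CPM at day 0 (n = 4) and 13.6 to 31.5 at day 7 (n = 3), and cluster 26 held 88.7 ± 39.9 CPM at day 0 (n = 2) and 3.75 ± 4.42 at day 7 (n = 4). From day 3 on endothelial-like cells were the cell type with the highest mean level in every group, apart from the next in each. At day 21 their level was 46.3 to 65.3 CPM, a log2 change of 0.53 ± 0.17 with an edgeR adjusted p of 0.037, and the call was lost (adjusted p 0.062 to 0.10) without day 0 replicate 1, 3 or 4, or without day 21 replicate 1, 3 or 4. Markers of endothelial cells moved in the same direction as Ptgs1 in the other lineages, and their part in the fall was not tested. The summed level of 19 such markers (18 detected at day 0) was 750.0 to 1044 CPM in monocyte/macrophage-like cells at day 0 and 78.7 to 101 at day 3, against 10625 to 14419 in endothelial-like cells at day 0.

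Ptgs2 (ENSMUSG00000032487, chr1:150100031-150108227) rose early at the whole site and was below its day 0 level by day 21. The day 0 libraries held 54.1, 38.4, 73.0 and 45.5 CPM, the day 3 libraries 114, 86.7 and 128 CPM, and the day 21 libraries 34.1, 26.6, 21.8 and 26.6 CPM. The 3 groups did not overlap. The log2 fold change was 1.39 ± 0.21 at day 3 and -0.80 ± 0.20 at day 21 (edgeR adjusted p = 0.000295 and 0.00822). At day 7, with 58.7 to 82.0 CPM, it was 0.56 ± 0.19 (edgeR adjusted p = 0.026), a call that was lost without day 0 replicate 2 or 4 or day 7 replicate 4 (adjusted p 0.061 to 0.074). The 2 main lineages did different things. In monocyte/macrophage-like cells the day 0 libraries held 20.4, 31.1, 6.50 and 18.7 CPM and the day 3 libraries 127, 87.7 and 148 CPM, a log2 change of 2.71 ± 0.33 (edgeR adjusted p = 2.32e-05). At a Leiden resolution of 2 that change was 1.18 (adjusted p 0.0021), but the lineage then held other cells. A cluster led by Chil3, Gm9733 and Ifitm6 (1665 cells, 1493 from day 3) stayed unnamed there. A cluster led by Arg1, Cxcl3 and Il1a (972 cells, 721 from day 3) was named granulocyte-like. At the main resolution cluster 3 made up 4.59% of monocyte/macrophage-like cells at day 0 and 47.6% at day 3. Its Ptgs2 level was 107 CPM in day 0 replicate 1 (13 cells, 9 UMIs) and 136 to 200.4 CPM at day 3. Cluster 18, 66.6% of the lineage at day 0, held 3.33% of its Ptgs2 UMIs then. The part of such shifts between clusters in the rise was not tested. At day 7 the level of the lineage was 39.4 to 87.9 CPM, still above every day 0 library (log2 change 1.76 ± 0.38, edgeR adjusted p = 0.00163), and by day 21 it was 8.19 to 32.5 CPM and overlapped day 0. In stromal-like cells the level was already 122, 114, 159.9 and 118 CPM at day 0. It was 99.2 to 136 CPM at day 3 (log2 change 0.01 ± 0.15) and then fell, to 12.9 to 42.5 CPM at day 21 (log2 change -2.21 ± 0.26, edgeR adjusted p = 4.76e-05), a change of -1.58 at a resolution of 2. The day 7 change in stromal-like cells, -0.48 ± 0.16 with an edgeR adjusted p of 0.025, was lost without day 0 replicate 3 or day 7 replicate 2 or 3 (adjusted p 0.062 to 0.14). Endothelial-like cells held little Ptgs2, 1.49 to 4.20 CPM at day 0 and 9.66 to 13.4 at day 3 (log2 change 1.87 ± 0.38, edgeR adjusted p = 0.00108, and 2.58 without the highest doublet scores).

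At day 3 the highest level of Ptgs2 was in granulocyte-like cells, of which the day 3 libraries held 81, 84 and 149 and the day 0 libraries 1 to 7. There Ptgs2 was 186, 256 and 279 CPM at day 3, above every monocyte/macrophage-like and stromal-like sum of that day. When each cell was thinned to 1500 UMIs, 22.5% of granulocyte-like, 14.8% of monocyte/macrophage-like and 13.0% of stromal-like cells held a Ptgs2 UMI at day 3 (unthinned 58.1%, 41.3% and 69.2%, at median depths of 7973, 9642 and 34641 UMIs). Among erythrocyte-like cells of 2 libraries at day 3, which should lack the gene, 0% did after thinning and 23.8% before it. All 3 day 3 libraries together held 84 such cells (median 11272 UMIs), and the library with only 3 of them did not enter these shares. At day 0 the thinned shares were 9.15% of stromal-like and 1.19% of monocyte/macrophage-like cells. Genes that respond within minutes to handling of tissue also differed between groups, and their part in the Ptgs2 levels was not tested. The summed level of 8 such immediate early genes (Fos, Fosb, Jun, Junb, Egr1, Atf3, Ier2 and Zfp36, chosen after the Ptgs2 values were seen) was 5430 to 7580 CPM in stromal-like cells at day 0 and 2676 to 3402 at day 3, and 5029 to 7765 and 4403 to 4733 CPM in monocyte/macrophage-like cells.

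**Figure D3:**
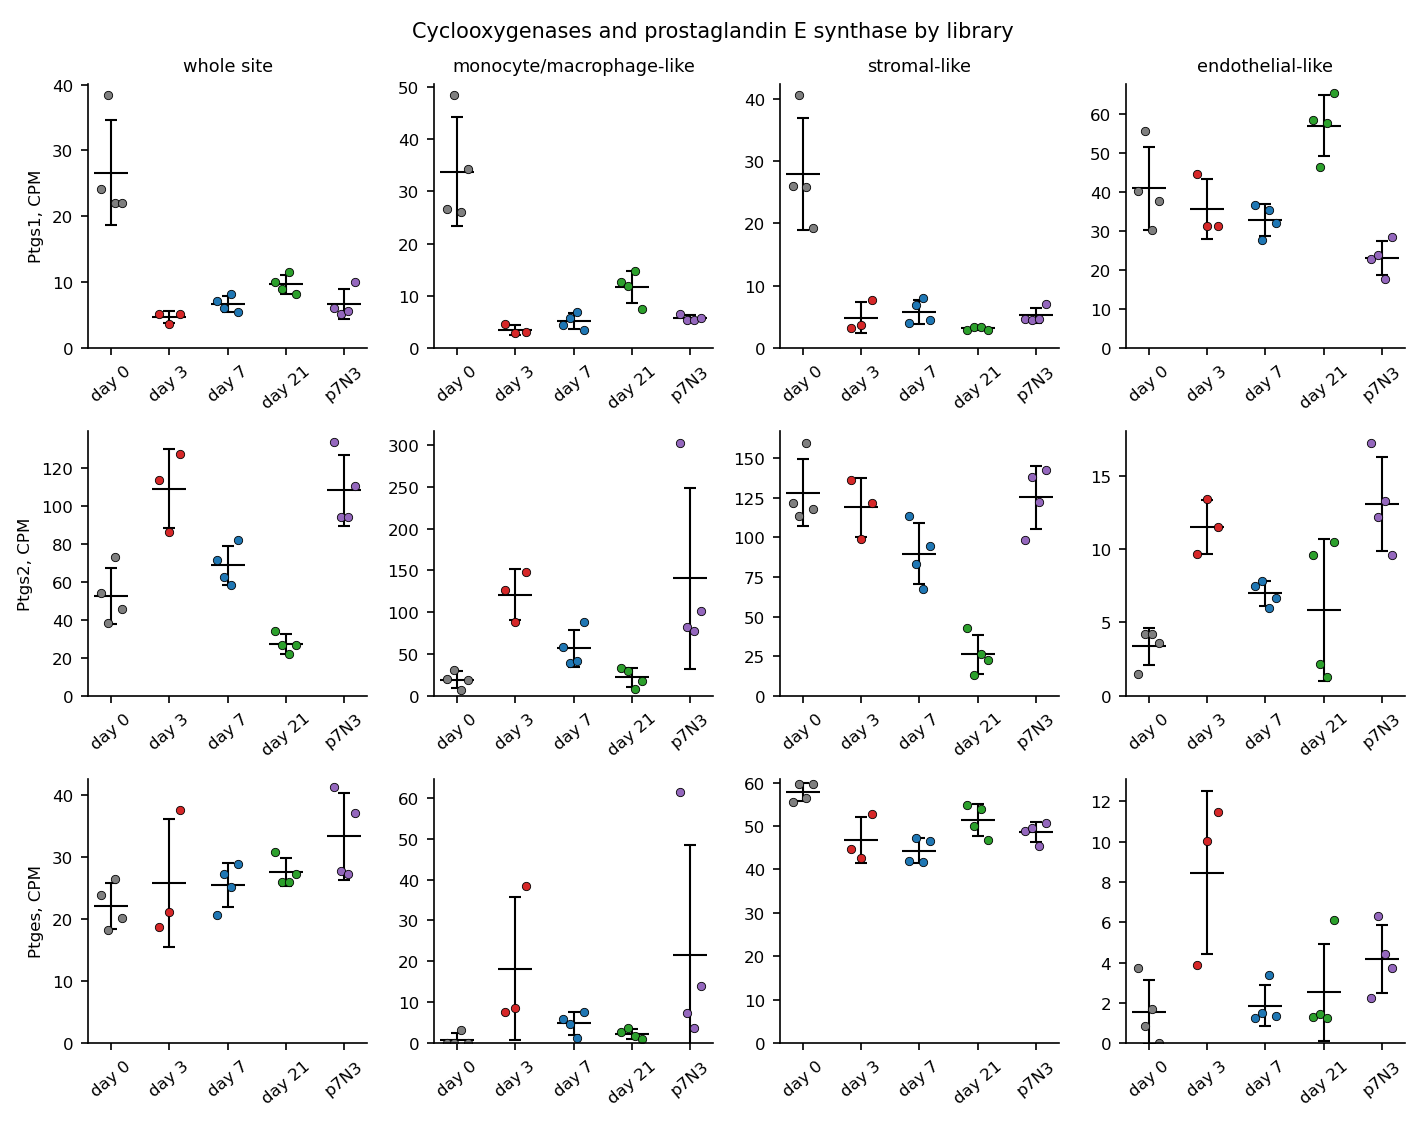
Points give the level (vertical axis, CPM) of Ptgs1, Ptgs2 and Ptges in each library of each group (horizontal axis), for the whole site and each lineage, and bars give the mean ± SD (cut off at 0). Monocyte/macrophage-like Ptgs2 rises from 6.50 to 31.1 CPM at day 0 to 87.7 to 148 CPM at day 3, and 1 p7N3 library stands at 302 CPM.

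Ptges (ENSMUSG00000050737, chr2:30889471-30929863), the inducible prostaglandin E synthase, kept its main place in stromal-like cells. The day 0 libraries held 55.6, 59.6, 56.5 and 59.7 CPM there and the day 3 libraries 44.8, 42.7 and 52.9 CPM. Day 7 libraries lay between 41.7 and 47.1 CPM, and day 21 libraries between 46.8 and 54.9. The day 7 log2 change, -0.33 ± 0.10 with an edgeR adjusted p of 0.014, passed the test, and without day 0 replicate 3 it did not (adjusted p 0.0506). At the whole site Ptges passed at day 21, by 0.46 ± 0.13 (edgeR adjusted p = 0.015), with 18.2 to 26.4 CPM at day 0 and 26.0 to 30.9 at day 21. That call was lost in replicates 1 to 3 only and in a single fit of all 5 groups (adjusted p 0.082 and 0.064). The whole-site changes at days 3 and 7, 0.55 ± 0.26 and 0.38 ± 0.15 (edgeR adjusted p = 0.079 and 0.051), passed in some alternatives, among them those without day 3 replicate 1 (0.76, adjusted p 0.025), day 0 replicate 3 (0.49, adjusted p 0.028) and day 7 replicate 1 (0.47, adjusted p 0.014). Monocyte/macrophage-like cells held 1 Ptges UMI in all at day 0, too few for a test there. At day 3 they held 7.66, 8.64 and 38.4 CPM.

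Within the monocyte/macrophage-like cells, cluster 16 (Arg1, Cxcl3, Il1a, Csf3) had the highest mean level of both Ptgs2 and Ptges over all its libraries. For Ptgs2 that did not hold at day 3, where the mean was 161 ± 55.3 CPM in cluster 16 and 174 ± 33.9 in cluster 3. Of its 1077 cells none came from day 0, 789 from day 3, 87 from day 7, 1 from day 21 and 200 from p7N3. Its Ptgs2 level averaged 744 CPM and its Ptges level 180 CPM over the 10 libraries with at least 10 such cells, but the libraries varied widely. Ptgs2 was 119, 141 and 224 CPM at day 3, 108, 311 and 589 CPM at day 7, and 3172, 1234, 329 and 1216 CPM with p7N3. Ptges was 27.9, 25.9 and 118 CPM at day 3, 174, 245 and 64.35 CPM at day 7, and 763, 199.6, 12.9 and 167 CPM with p7N3. The day 7 and p7N3 ranges overlapped for both genes. The library at 3172 CPM of Ptgs2 was also the one at 763 CPM of Ptges. In p7N3 libraries together, cluster 16 made up 4.25% of monocyte/macrophage-like cells and held 60.9% of their Ptgs2 UMIs and 82.9% of their Ptges UMIs. Without p7N3 replicate 1 these shares were 3.07%, 32.05% and 46.1%. Cluster 3, the monocyte cluster led by Chil3, Ly6c2 and Ccr2, held 200.4, 136 and 186 CPM of Ptgs2 at day 3 with 2.37 to 5.70 CPM of Ptges. At a Leiden resolution of 2 a cluster of 972 cells led, as cluster 16 was, by Arg1, Cxcl3, Il1a and Csf3 was named granulocyte-like.

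**Figure D4:**
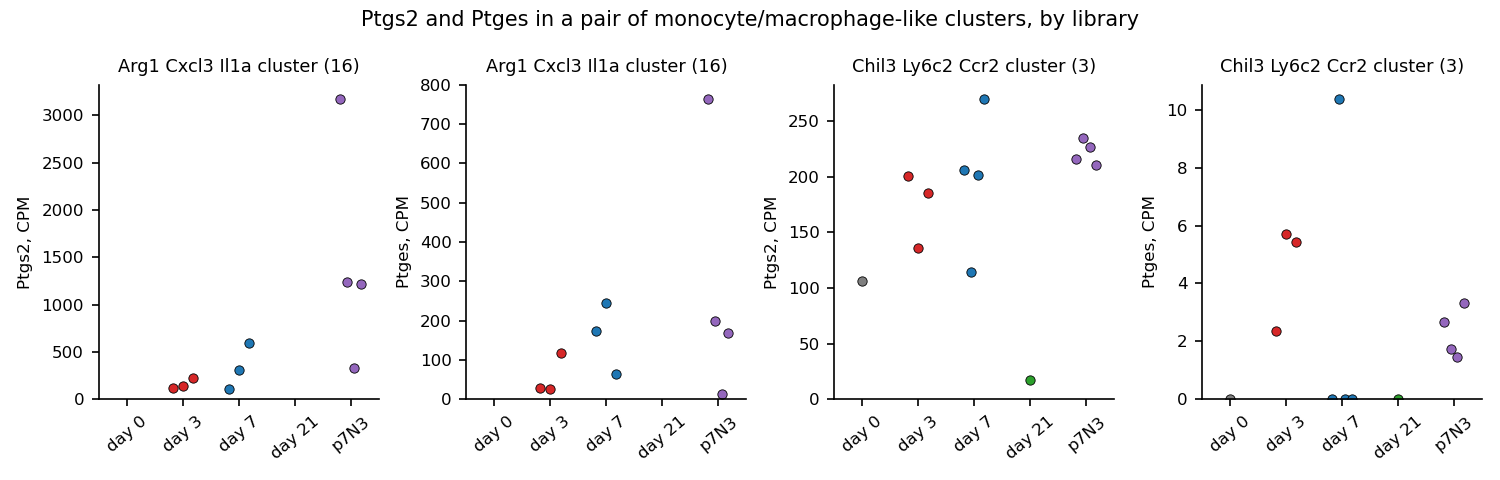
Points give the level (vertical axis, CPM) of Ptgs2 and Ptges in each library with at least 10 cells of cluster 16 (left pair of panels) or cluster 3 (right pair), by group. In cluster 16, p7N3 replicate 1 is highest for both genes (3172 and 763 CPM), and in cluster 3 Ptges stays under 10.4 CPM.

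Ptgis (ENSMUSG00000017969, chr2:167191805-167240604), the prostacyclin synthase, fell and then rose at the whole site. The levels were 47.4, 52.3, 69.0 and 54.1 CPM at day 0, 21.2, 24.5 and 21.7 CPM at day 3, and 113, 77.6, 72.8 and 121 CPM at day 21. Every day 3 library lay below, and every day 21 library above, the day 0 range. The log2 change was -0.96 ± 0.13 at day 3 and 0.95 ± 0.20 at day 21 (edgeR adjusted p = 0.000135 and 0.00292). At day 7 it was -0.54 ± 0.21 (edgeR adjusted p = 0.042), a call lost without day 0 replicate 2, 3 or 4 or day 7 replicate 1, 3 or 4 (adjusted p 0.061 to 0.14). Stromal-like cells lost Ptgis at all 3 times, with 84.3, 115, 129.8 and 107 CPM at day 0 and 63.9, 58.4 and 66.1 CPM at day 3. The day 7 libraries held 35.3 to 57.4 CPM, and day 21 libraries lay between 45.3 and 81.0. Relative to day 0 this was a log2 change of -0.66 ± 0.14, -1.28 ± 0.17 and -0.81 ± 0.18 (edgeR adjusted p = 0.000931, 3.48e-05 and 0.00408). The day 3 call was lost in a single fit of all 5 groups (-0.62, adjusted p 0.064), and the day 21 change was -1.45 at a Leiden resolution of 2. When tenocyte-like and chondrocyte-like cells were added to the stromal-like cells, the day 21 change became 0.16 (adjusted p 0.40). Chondrocyte-like cells had the highest level of Ptgis, 556, 423 and 535 CPM in 3 day 0 libraries (10, 21 and 12 cells) and 271, 200.1, 166 and 263 CPM at day 21 (235, 123, 119 and 467 cells). They held 27.3% of all UMIs at day 21 and 64.0% ± 10.2 of the Ptgis UMIs, against 2.53% and 21.0% ± 4.0 at day 0.

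Hpgds (ENSMUSG00000029919, chr6:65117293-65144908), the hematopoietic prostaglandin D synthase, rose at the whole site. It was 6.32, 8.94, 5.90 and 7.19 CPM at day 0 and 20.3, 30.9 and 19.7 CPM at day 3, and the day 7 libraries lay between 19.9 and 25.4. Log2 changes were 2.11 ± 0.20 and 1.93 ± 0.13 (edgeR adjusted p = 1.45e-05 and 2.03e-06). Within monocyte/macrophage-like cells the level was 47.0, 79.5, 58.5 and 59.1 CPM at day 0 and 38.5, 61.1 and 36.5 CPM at day 3, ranges that overlapped (log2 change -0.30 ± 0.26, adjusted p 0.36). The direction for the lineage at day 3 depended on the setting. At a Leiden resolution of 2, where a cluster led by Chil3 stayed unnamed, it was a called rise of 0.48 (adjusted p 0.031). Without day 3 replicate 2 it was a called change of -0.54 (adjusted p 0.017). At day 7 the 4 libraries held 80.6 to 136 CPM, all above day 0 (log2 change 1.06 ± 0.22, edgeR adjusted p = 0.00129), and at day 21 91.9 to 112 CPM (0.87 ± 0.17, edgeR adjusted p = 0.000856). The cluster with the highest mean level was cluster 4 (Ms4a7, Apoe, Ccl8), at 169 ± 27.1 CPM over 12 libraries. Cluster 18 held 72.9 ± 8.84 CPM at day 0 (n = 4) and 159 ± 0.74 at day 3 (n = 2). Cluster 7 held 79.0 ± 4.14 CPM at day 0 (n = 2) and 96.5 ± 9.97 at day 3 (n = 3). Cluster 3, 47.6% of monocyte/macrophage-like cells at day 3, held 8.19 ± 2.57 CPM then (n = 3). In 34 mast cell/basophil-like cells, found at a resolution of 2 and pooled over 12 libraries, Hpgds was 265 CPM (34 UMIs, exact 95% Poisson interval 183 to 369.9, counting error only).

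The prostaglandin E2 receptor Ptger4 (EP4, ENSMUSG00000039942, chr15:5206661-5244187) went opposite ways in different lineages. In stromal-like cells the day 0 libraries held 5.93, 1.12, 5.92 and 5.68 CPM and the day 3 libraries 17.4, 17.2 and 12.7 CPM. At day 7 the level was 28.3, 27.8, 25.05 and 19.8 CPM, and at day 21 8.64, 9.25, 9.75 and 15.3 CPM. No injured library overlapped day 0. Against day 0 this was 1.74 ± 0.28, 2.34 ± 0.26 and 1.15 ± 0.34 at days 3, 7 and 21 (edgeR adjusted p = 0.000141, 6.68e-06 and 0.0196), and without day 21 replicate 4 the last was 0.88 (adjusted p 0.052). The day 21 call was also lost in replicates 1 to 3 only and at a Leiden resolution of 2 (adjusted p up to 0.078). Cluster 6 was 95.6% of stromal-like cells with 90.9% of their Ptger4 UMIs at day 0, and 5.9% with 0.74% at day 7. Cluster 11 (Gzme, Sfrp1), with 0 cells at day 0, was 19.5% of them with 59.6% of these UMIs at day 7. The part of such shifts between clusters in the rise was not tested. In endothelial-like cells Ptger4 fell, from 34.2, 15.96, 24.2 and 26.3 CPM at day 0 to 2.90, 6.68 and 6.26 CPM at day 3 (log2 change -2.15 ± 0.39, edgeR adjusted p = 0.000443). It remained lower there at day 7 and day 21, by -1.79 ± 0.31 and -0.93 ± 0.24 (edgeR adjusted p = 0.000276 and 0.0127). Cluster 9, most of these cells at day 0, held 26.4 ± 7.86 CPM then (n = 4), 46.7 ± 24.6 at day 7 (n = 3, 26 UMIs) and 17.8 ± 4.45 at day 21 (n = 4), while cluster 12, most of them at day 3, held 1.40 to 5.81 CPM at day 3 and 3.76 to 7.29 at day 7. Ptger4 in monocyte/macrophage-like cells was 31.1 to 37.3 CPM at day 0 and 16.3 to 20.6 at day 3. The log2 change of -0.81 ± 0.20 (edgeR adjusted p = 0.00464) was -0.68 (adjusted p 0.061) without day 0 replicate 1, and that of day 7, -0.76 ± 0.20 (edgeR adjusted p = 0.00562), was -0.70 (adjusted p 0.054). The day 3 call was also lost at a Leiden resolution of 2 (adjusted p 0.073), and the day 7 call with no filter on low counts (adjusted p 0.062). The whole site, summing these, changed by 0.49 ± 0.14 at day 3, 0.45 ± 0.14 at day 7 and -0.48 ± 0.14 at day 21 (edgeR adjusted p = 0.0108, 0.0191 and 0.0176), and the last was lost without day 0 replicate 1 or 4 or day 21 replicate 1 (adjusted p 0.051 to 0.062). That day 21 call was also lost in replicates 1 to 3 only and with replicate number as a block (adjusted p 0.086 and 0.052). Stromal-like Ptger4 was 84.8% of the monocyte/macrophage-like level at day 3 and 144% at day 7, while the summed level of 20 macrophage markers was 8.42% and 3.50%. The highest mean of any cluster, 122 ± 29.6 CPM over 9 libraries, was in the dendritic cell-like cluster 27 (Ccl22, Ccr7, Il4i1).

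The other receptor, Ptger2 (EP2, ENSMUSG00000037759, chr14:44988195-45003820), was low throughout. At the whole site it was 0.99 to 3.90 CPM at day 0 and 4.42 to 7.05 at day 3 (log2 change 1.62 ± 0.35, edgeR adjusted p = 0.00253). In stromal-like cells it was 2.13 to 4.10 CPM at day 0 and 0.61 to 1.38 at day 7 (-1.70 ± 0.42, edgeR adjusted p = 0.00454), from 2 to 12 UMIs a library, and it had too few UMIs to be tested when any day 7 library was left out.

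Alox5 (5-lipoxygenase, ENSMUSG00000025701, chr6:116410077-116461178) and Ltc4s (leukotriene C4 synthase, ENSMUSG00000020377, chr11:50236461-50238616) both fell in monocyte/macrophage-like cells. Alox5 was 81.5, 69.1, 107 and 49.8 CPM at day 0, 13.0, 19.9 and 11.2 CPM at day 3, 5.79 to 10.5 CPM at day 7 and 20.5 to 47.4 CPM at day 21. The day 21 libraries lay between the others, all below day 0. These were log2 changes of -2.33 ± 0.27, -3.03 ± 0.24 and -1.13 ± 0.25 (edgeR adjusted p = 1.72e-05, 5.62e-08 and 0.00273), the day 3 change being -1.69 at a Leiden resolution of 2. Ltc4s was 382, 425, 403 and 364 CPM at day 0, 35.4, 47.1 and 47.2 CPM at day 3, 32.9 to 70.2 CPM at day 7 and 163, 186, 90.05 and 77.7 CPM at day 21. Day 21 replicates 1 and 2 lay above the other injured libraries and below every day 0 library. These were log2 changes of -3.12 ± 0.13, -2.79 ± 0.18 and -1.52 ± 0.21 (edgeR adjusted p = 2.93e-09, 4.53e-09 and 4.36e-05). Both genes had their highest mean in cluster 18, which made up 66.6% of these cells at day 0. Within that cluster Alox5 was 99.3 ± 32.8 CPM at day 0 (n = 4), 107 ± 2.24 at day 3 (n = 2), 48.4 ± 12.8 at day 7 (n = 4) and 64.5 ± 11.7 at day 21 (n = 4). At day 3 cluster 18 was 1.22% of the lineage, and cluster 7 was 24.5% of it with 58.5% of its Alox5 UMIs. In cluster 7 Alox5 was 104 ± 31.7 CPM at day 0 (n = 2, 13 UMIs), 27.2 ± 2.83 at day 3 (n = 3) and 17.1 ± 6.36 at day 7 (n = 4). It was 44.1 ± 28.0 CPM there at day 21 (n = 4). Within cluster 18 Ltc4s was 599 ± 72.7 CPM at day 0 (n = 4), 89.4 ± 29.6 at day 3 (n = 2), 232 ± 88.2 at day 7 (n = 4) and 333 ± 125 at day 21 (n = 4). Cluster 7 held 58.9% of the Ltc4s UMIs of the lineage at day 3. Ltc4s in cluster 7 was 139 ± 35.2 CPM at day 0 (n = 2, 15 UMIs) and 81.5 ± 13.3 at day 3 (n = 3). There it was 104 ± 36.3 CPM at day 7 and 127 ± 38.2 at day 21 (n = 4 each). The part of such shifts between clusters in the fall of either gene was not tested. At the whole site Alox5 changed by 0.50 ± 0.24 at day 3 (adjusted p 0.089) and fell by 1.71 at day 7 and 1.25 at day 21 on the log2 scale (edgeR adjusted p = 0.000615 and 0.00238), and Ltc4s fell by 1.13 and 1.32 at those times (edgeR adjusted p = 0.000455 and 0.00237).

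Ltc4s rose in endothelial-like cells while it fell in macrophages. The endothelial-like level was 2.98, 10.9, 9.20 and 10.7 CPM at day 0, 24.2, 15.6 and 18.8 CPM at day 3, 53.8, 49.5, 42.1 and 65.1 CPM at day 7, and 8.55 to 11.3 CPM at day 21. The day 3 and day 7 libraries lay above every day 0 library, and day 21 overlapped it. The log2 change was 1.34 ± 0.35 at day 3 and 2.64 ± 0.25 at day 7 (edgeR adjusted p = 0.00583 and 1.34e-06). At day 7 the endothelial-like level was 115% of the monocyte/macrophage-like level, while summed macrophage markers there were 2.77% of it. By cluster the day 7 level was 139 ± 79.7 CPM (n = 4) in cluster 26, led by the lymphatic genes Ccl21a, Mmrn1 and Prox1, and 40.2 ± 6.80 CPM in cluster 12. At day 3 cluster 26 was 11.5% of endothelial-like cells (11 cells) with 57.9% of their Ltc4s UMIs. At day 0 it was 3.06% with 9.30%. Cluster 12 held 0 Ltc4s UMIs at day 0 (n = 2) and 9.35 ± 6.09 CPM at day 3 (n = 3). Cluster 9, most of these cells at day 0, held 8.49 ± 3.77 CPM then (n = 4). The part of such shifts between clusters in the rise was not tested.

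Alox5ap (the 5-lipoxygenase activating protein, ENSMUSG00000060063, chr5:149264767-149288153) rose most of the 10 genes at the whole site, from 73.4 to 135 CPM at day 0 to 657 to 763 CPM at day 3. The log2 change was 3.30 ± 0.21 at day 3 and 1.26 ± 0.23 at day 7 (edgeR adjusted p = 1.26e-06 and 0.000864). Within monocyte/macrophage-like cells the change was small. The level was 903, 709, 839 and 775 CPM at day 0, 1252, 1152 and 1185 CPM at day 3 and 662 to 780 CPM at day 7. The log2 change was 0.63 ± 0.10 at day 3 (edgeR adjusted p = 0.000244) and 0.00 ± 0.11 at day 7. Granulocyte-like cells held 1808, 1859 and 1696 CPM at day 3. In stromal-like cells the level was 2.28, 5.63, 4.31 and 1.42 CPM at day 0 and 109, 98.4 and 111 CPM at day 3, and in endothelial-like cells 4.98 to 16.8 and 104 to 123 CPM. The log2 change at day 3 was 5.18 ± 0.20 and 3.60 ± 0.26 (edgeR adjusted p = 1.33e-09 and 1.95e-07). Macrophage markers moved with it. As a share of the monocyte/macrophage-like level, stromal-like Alox5ap was 0.44%, 8.88%, 2.98% and 1.11% at days 0, 3, 7 and 21, Lyz2 was 0.39%, 6.32%, 1.53% and 0.49%, Cd68 was 1.42%, 8.27%, 2.00% and 0.58%, and 20 macrophage markers summed were 3.04%, 8.42%, 3.50% and 3.09%. In endothelial-like cells at day 3 the shares were 9.79% for Alox5ap and 5.86% for Lyz2. The summed markers were 1131 to 1749 CPM in stromal-like cells at day 0 (19 of 20 detected) and 3512 to 4145 at day 3 (20 of 20). Their part in the rise of Alox5ap outside myeloid cells was not tested. The stromal-like rise at day 7 was 2.76 ± 0.27 and that at day 21 1.32 ± 0.38 (edgeR adjusted p = 2.76e-06 and 0.0171), the latter lost without day 0 replicate 1 or 4 (adjusted p 0.080 and 0.055). The day 21 call was also lost without the highest doublet scores (adjusted p 0.098) and was not tested at a Leiden resolution of 2. Without those scores the mean stromal-like and endothelial-like levels of Alox5ap at day 7 moved by over 1 SD, though the stromal-like call at day 7 held.

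**Figure D5:**
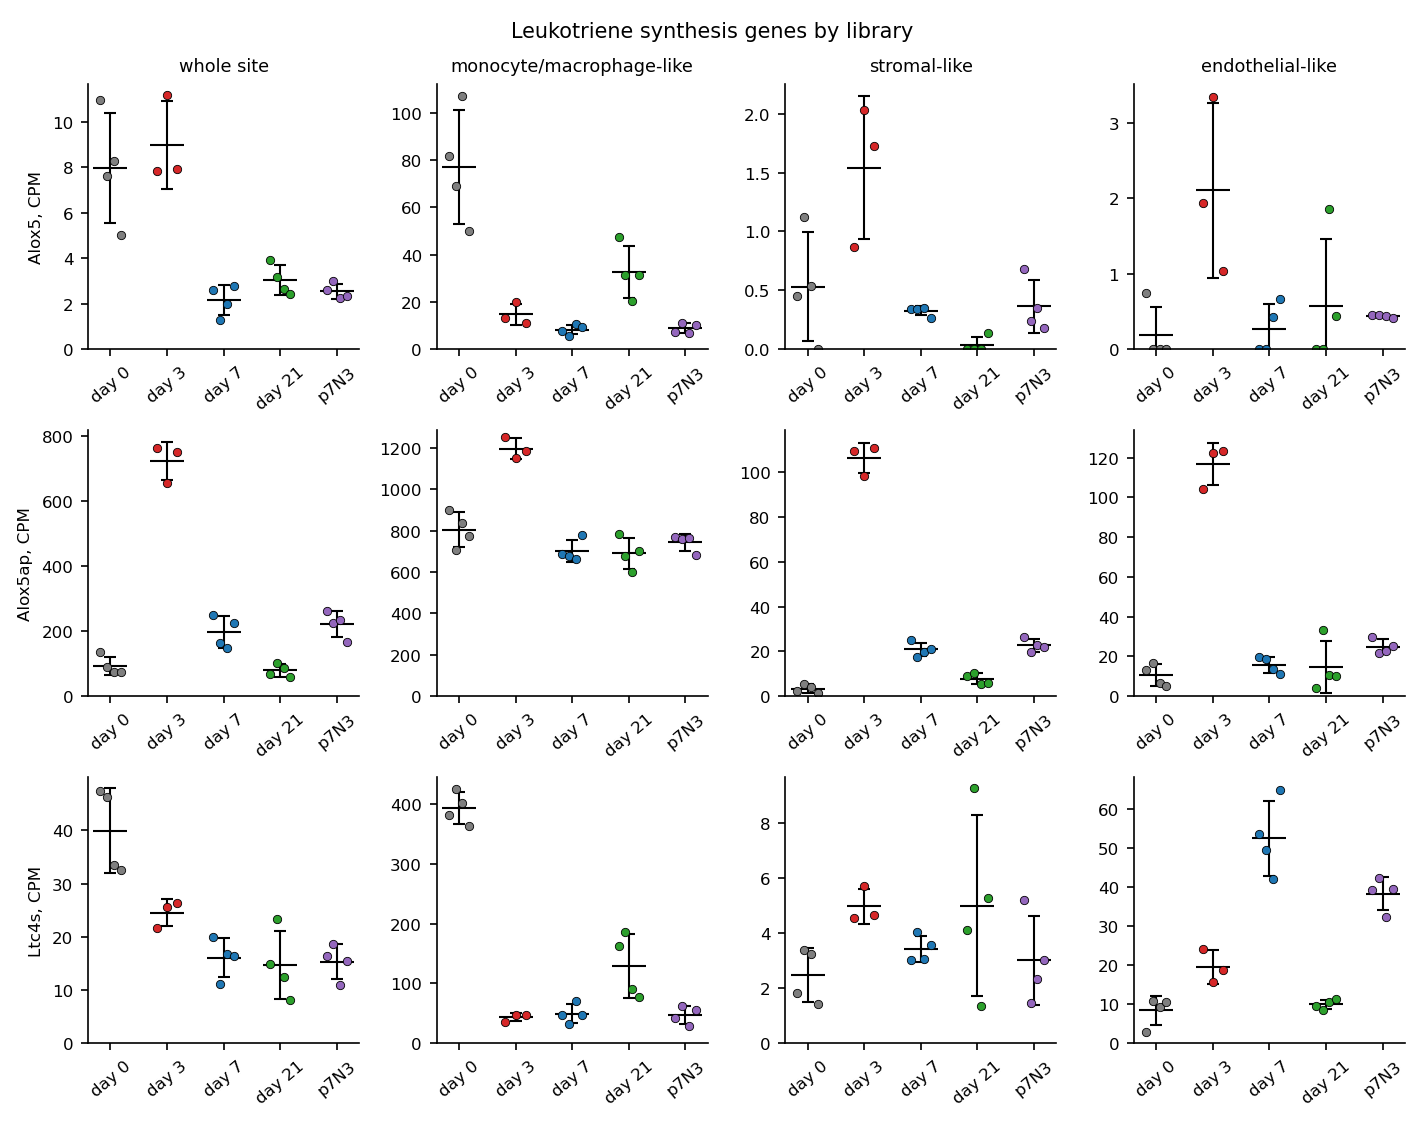
Points give the level (vertical axis, CPM) of Alox5, Alox5ap and Ltc4s in each library of each group (horizontal axis), for the whole site and each lineage, and bars give the mean ± SD (cut off at 0). Ltc4s drops from 394 to 43.2 CPM (means) in monocyte/macrophage-like cells between day 0 and day 3, and rises from 8.44 to 52.6 CPM in endothelial-like cells between day 0 and day 7.

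The change from day 0 to day 7 was compared between stromal-like and monocyte/macrophage-like cells in 1 model, and 7 of the 10 genes passed (22.2% of all genes). All genes had a median difference of -0.19 on the log2 scale (stromal-like minus monocyte/macrophage-like change), against which single values are to be read. Ptgs2 differed by -2.38 ± 0.32, rising in monocyte/macrophage-like and falling in stromal-like cells (edgeR adjusted p = 1.54e-06), and Ptger4 by 2.90 ± 0.36 the other way (edgeR adjusted p = 3.39e-07). Ltc4s differed by 3.14 ± 0.37 and Alox5ap by 2.58 ± 0.28 (edgeR adjusted p = 1.87e-07 and 3.57e-08). Ptger2 differed by -2.40 ± 0.64 (edgeR adjusted p = 0.00606), and by -3.21 without day 0 replicate 1. Day 0 counts were low for several of these. Ltc4s had 15 stromal-like UMIs then, all in cluster 6. Ptger2 had 5 UMIs in cluster 5, which held 45.5% of the monocyte/macrophage-like Ptger2 UMIs then. Stromal-like Alox5ap moved with macrophage markers, as described above. The other 2, Ptges and Alox5, rested on still fewer UMIs. Ptges (-3.64 ± 1.13, edgeR adjusted p = 0.0188) had 1 monocyte/macrophage-like UMI at day 0 and was lost without day 0 replicate 1, 2 or 4 (adjusted p 0.057 to 0.11), with -8.32 without day 0 replicate 3, which held that UMI. Alox5 (2.38 ± 0.82, edgeR adjusted p = 0.0355) had at most 4 stromal-like UMIs in a library and was lost without day 0 replicate 1, 3 or 4 or day 7 replicate 1 or 2 (adjusted p 0.063 to 0.12). Without the highest doublet scores the Ptges and Alox5 differences were -8.13 and 3.74. Ptgs1 fell in both lineages, with a difference of 0.06 ± 0.30 (edgeR adjusted p = 0.92).

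The p7N3 libraries were compared with the day 7 libraries to ask whether CD47 activation changed these genes. None of the 10 genes passed in edgeR at the whole site or in any of the 3 lineages, where 0.0%, 0.00915%, 0.0% and 0.0% of all genes passed (whole site, monocyte/macrophage-like, stromal-like and endothelial-like). At an unadjusted p under 0.05, 3 of 10 genes passed at the whole site, 4 of 10 in monocyte/macrophage-like, 2 of 8 in stromal-like and 4 of 5 in endothelial-like cells. The share of all genes under that threshold is not given here, so these counts are no result about the 10 genes. DESeq2 called Ptgs2 at the whole site and Ptger4 in monocyte/macrophage-like cells, also without its share of all genes. Ptgs2 was 71.8, 62.7, 58.7 and 82.0 CPM at day 7 and 134, 94.5, 94.1 and 111 CPM with p7N3, ranges that did not overlap. Its log2 change was 0.65 ± 0.14 (edgeR adjusted p = 0.26, DESeq2 adjusted p = 0.0029). Ptgs2 in monocyte/macrophage-like cells was 302, 81.6, 77.6 and 101 CPM with p7N3, and its log2 change of 1.3 ± 0.41 (edgeR adjusted p = 0.42) was 0.58 (adjusted p 0.58) without p7N3 replicate 1. Ptges was highest in the same library, at 61.3, 7.38, 3.59 and 13.9 CPM with p7N3 and a log2 change of 2.12 ± 0.73 (edgeR adjusted p = 0.48) that was 0.67 without that library. Ptger4 in monocyte/macrophage-like cells was 19.5, 16.7, 15.97 and 18.7 CPM at day 7 and 24.2, 27.4, 27.7 and 26.7 CPM with p7N3 (log2 change 0.55 ± 0.09, edgeR adjusted p = 0.22, DESeq2 adjusted p = 0.020), and 19.8 to 28.3 and 17.9 to 20.1 CPM in stromal-like cells (-0.44 ± 0.12, edgeR adjusted p = 0.16). The difference between those changes was -1.02 ± 0.15 (edgeR adjusted p = 0.032; 0.0154% of all genes passed that test). It was lost when day 7 replicate 1, 2 or 3 or p7N3 replicate 2, 3 or 4 was left out (adjusted p 0.052 to 0.19).

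Other genes of the pathway were described from a fixed list of 35. At the whole site 19 of 26 tested genes passed at day 3 (12 higher, 7 lower) and 20 of 29 at day 7 (12 higher, 8 lower). At day 21 it was 14 of 29 (7 higher, 7 lower). Of all genes 74.6%, 63.5% and 51.8% passed. For p7N3 0 of 28 passed, and 5 were under an unadjusted 0.05, a count with no share of all genes beside it. In monocyte/macrophage-like cells 8 of 15, 9 of 18 and 5 of 15 passed, mostly lower (6, 7 and 4), against 52.3%, 35.5% and 25.6% of all genes. The largest fall was of Pla2g2d, a secreted phospholipase A2, from 55.3 to 111 CPM at day 0 to 3 UMIs over the 3 day 3 libraries. Hpgd, the dehydrogenase that inactivates prostaglandins, fell there from 104 to 212 CPM at day 0 to 8.36 to 14.7 CPM at day 3 (log2 change -3.70 ± 0.24, edgeR adjusted p = 1.02e-07). Dpep2, a dipeptidase that acts on leukotriene D4, rose from 56.9 to 157 CPM (means; log2 change 1.41 ± 0.18, edgeR adjusted p = 4.07e-05). In stromal-like cells 13 of 20, 13 of 22 and 5 of 20 passed, against 66.1%, 50.6% and 31.1% of all genes. Dpep1, a further leukotriene dipeptidase, fell there from 351 to 522 CPM at day 0 to 78.5 to 91.5 CPM at day 3 (log2 change -2.31 ± 0.15), and the prostaglandin transporter Slco2a1 fell by 1.93 on the log2 scale at day 7. In endothelial-like cells 4 of 11, 5 of 12 and 4 of 13 passed, against 55.9%, 59.4% and 28.1% of all genes. Slco2a1 rose there from 13.4 to 54.1 CPM at day 0 to 134 to 267 CPM at day 3 (log2 change 2.70 ± 0.32), and Tbxa2r, the thromboxane receptor, fell from 27.5 to 40.6 CPM to 2.90 to 5.22 CPM (-3.06 ± 0.31). Both stayed changed at day 21, Slco2a1 by 2.26 ± 0.43 and Tbxa2r by -1.25 ± 0.24 (edgeR adjusted p = 0.00202 and 0.00215). In the comparison of stromal-like with monocyte/macrophage-like changes at day 7, 6 of 24 passed, against 22.2% of all genes.

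The genes whose levels followed each gene most closely over the 189 sums of a library's cells of 1 type were named among 8670 genes, by Spearman's rho of log2(CPM + 1). These sums share libraries and depth, so the values are descriptions. The closest to Alox5ap were Il1b, AF251705 and Pirb (all 0.93), to Hpgds Fcgr1 (0.81), Ftl1 (0.80) and Ms4a6d (0.79), and to Ltc4s Dab2 (0.78), Stab1 and Gda (both 0.74). For the prostaglandin side they were Antxr1 (0.78) and Ndrg4 (0.76) for Ptgis, Wisp2 (0.70), P4hb and Vcan (both 0.69) for Ptges, and Nrp1 (0.70), Lgals9 (0.66) and Sash1 (0.63) for Ptgs1. Ptgs2 was nearest to Basp1 (0.68), Tgfbi and Emilin2 (both 0.67). Alox5 was nearest to Fcgr1 (0.67), Tmem106a (0.66) and Lilrb4a (0.65), Ptger4 to Sp110 (0.62), Clec2i and Pim1 (both 0.61), and Ptger2 to Sema4a (0.62), Hilpda (0.60) and Ehbp1l1 (0.59).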

How the data were processed

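Droplet (10x Genomics) counts of UMIs per gene and cell were deposited by the authors, who aligned reads and counted with Cell Ranger per the labels. The submitters' processing notes name GRCh38 for replicates 1 to 3 and mm10 for replicate 4, and all files hold the same 27998 mouse genes. From the deposited counts, cells passed with 500 genes or more and no more than 25% of UMIs from mitochondrial genes, and were clustered in scanpy 1.11.5 (Leiden resolution 0.8) with the 10 genes and 35 pathway genes left out, and named from marker lists. No doublets were removed, and removal of the highest Scrublet scores was an alternative. Counts were summed per library and cell type (10 or more cells) and tested across libraries with edgeR 4.0.16 (quasi-likelihood, TMM, filterByExpr), with Benjamini-Hochberg adjusted p under 0.05 over all genes as the call. DESeq2 1.42.0, other normalization, no filter, leaving out each library, replicates 1 to 3 only, stricter cell filters, other clusterings, a replicate block and a single fit of all groups were alternatives. On simulated day 7 against day 0 counts with 200 genes changed by a fold of 2, edgeR recovered 63.5% of them at the whole site (14368 genes) and 73% in stromal-like cells (11747 genes). It recovered 76.5% in endothelial-like cells (9300 genes) and only 34.5% for the difference between lineages (12121 genes). False calls were 9 of 136, 7 of 153, 9 of 162 and 6 of 75 in that order. Far more genes passed in the data (9127 of 14368 at the whole site), so these shares need not hold for the tests above. Neither monocyte/macrophage-like cells alone nor p7N3 were simulated. Each of the 10 genes is described, but not in every comparison, and of the pathway list those called with the largest changes are named. Left out are some changes called only under alternatives, among them Hpgds at day 21 and Ltc4s at day 3 at the whole site. Ptgs2 in endothelial-like cells at day 7 is another. The genes and lists were chosen with earlier results of these data known. Coordinates are of GRCm38 (GENCODE vM21), and intervals cover counting error only. A gene among those closest in level to Ptgis is not reported here.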

Additional observations from a re-analysis of the deposited data

Results flagged for a closer look

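Of 136 sets of 4 libraries, 10 held a library far from the other 3 by Dixon's test, where chance gives about 1 in 20. In monocyte/macrophage-like cells p7N3 replicate 1 held 302.1 CPM of Ptgs2 against 77.6 to 101 in the other 3, and its Ptges, 61.3 CPM, was also the highest of that group. Ptgs1 at the whole site was 38.4 CPM in day 0 replicate 2 against 22.0 to 24.1. Ptgs1 in p7N3 replicate 4 was 10.1 CPM at the whole site against 5.19 to 6.01, and 7.08 CPM in stromal-like cells against 4.51 to 4.70. Ptges in monocyte/macrophage-like cells was 3.25 CPM (1 UMI) in day 0 replicate 3 against 0. Hpgds in stromal-like cells was 2.70 CPM in day 7 replicate 3 against 0.89 to 1.04. Ptger4 was 27.6 CPM in monocyte/macrophage-like cells of day 21 replicate 1 against 18.4 to 19.6, 1.12 CPM in stromal-like cells of day 0 replicate 2 against 5.68 to 5.93, and 15.3 CPM in stromal-like cells of day 21 replicate 4 against 8.64 to 9.75. Alox5ap in monocyte/macrophage-like cells was 681 CPM in p7N3 replicate 4 against 762 to 769.

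Changes from day 0 to day 7 differed between stromal-like and monocyte/macrophage-like cells in a test of the difference itself (stromal-like minus monocyte/macrophage-like log2 change) for Ptgs2 (-2.38), Ptges (-3.64), Ptger2 (-2.40), Ptger4 (2.90), Alox5 (2.38), Alox5ap (2.58) and Ltc4s (3.14). For p7N3 against day 7 the same test called Ptger4 (-1.02).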

How the results depend on the processing

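Of 70 calls of a gene in a comparison, 53 held in every alternative, and over 1267 alternative values 1196 kept the call, 70 lost it and 1 turned its direction, Ptgis in stromal-like cells at day 21 (0.16 with tenocyte-like and chondrocyte-like clusters added). Counts of the 10 genes called moved as follows. The number of genes tested differed between settings, and the share of all genes called in each is not given. These counts are therefore no result about the 10 genes. With DESeq2, 1 gene in place of 0 was called for p7N3 at the whole site and 1 in monocyte/macrophage-like cells, and 1 in place of 2 in endothelial-like cells at day 21. With no filter on low counts, 1 was called for p7N3 in monocyte/macrophage-like cells, 7 in place of 4 in stromal-like cells at day 3, and 2 in place of 1 for the lineage difference with p7N3. That difference called 0 with the 10 genes allowed in the clustering and 0 with tenocyte-like and chondrocyte-like clusters added. At a Leiden resolution of 2, 3 in place of 5 were called in stromal-like cells at day 21. Clusters were also named anew there, and 1460 cells led by Sfrp4, Nov and Eln (601 from day 21) stayed unnamed. In endothelial-like cells at day 21, 0 were called in replicates 1 to 3 only and 1 at a mitochondrial share of 10% or less. Leaving out 1 library at a time gave 0 to 1 for p7N3 in stromal-like cells (1 without day 7 replicate 4), 2 to 4 in endothelial-like cells at day 7 (4 without day 0 replicate 2), 1 to 2 in endothelial-like cells at day 21 and 0 to 1 for the lineage difference with p7N3. Libraries of the same number did not pair (correlations of their deviations -0.16 to 0.14). With the replicate block, 1 in place of 2 genes was called in endothelial-like cells at day 21 and no other count moved by over 1.5 times. Of 150 mean levels, 0 moved by over 1 SD with the stricter mitochondrial limit, 11 without the highest Scrublet scores and 20 at a resolution of 2. Day 0 depth limits low genes, since 3 counts are 0.994 CPM in its smallest library.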

Other observations

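With 34 mast cell/basophil-like cells pooled over 12 libraries, Alox5 was 93.4 CPM (12 UMIs, exact Poisson interval 48.3 to 163), Alox5ap 234 CPM (30 UMIs, 158 to 333) and Ltc4s 7.79 CPM (1 UMI, 0.20 to 43.4). In the other 514 cells of cluster 21, which stayed unnamed and was led by Mmp9, Acp5, Ocstamp and Ctsk, Alox5ap was 278 CPM, Ltc4s 24.1 CPM, Ptgs2 22.3 CPM and Hpgds 19.2 CPM, from counts pooled over 19 libraries.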
